A study of Mus musculus with 12 samples.

Results

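The 10 genes described here carry the Sonic hedgehog signal from the secreted ligand to the nucleus: Shh, Hhip, Ptch1, Boc, Cdon, Gas1, Smo, Gli1, Gli2 and Gli3. They were chosen by name, not by their values, and are 10 of the 55357 genes counted in each library. Messenger RNA had been sequenced from mouse cerebral cortex dissected together with the hippocampal formation at E17.5, as 12 libraries in 4 groups of 3. The knockout groups, titled NcreEGFRFF, carried Nestin-Cre and floxed Egfr on both chromosomes (Nestin-EgfrF/F). The control groups, EgfrF/+, carried 1 floxed and 1 intact Egfr allele, and whether they carried Cre is not given in the sources used here, so that loss of Egfr and presence of Cre cannot be told apart. Nestin-Cre acts in neural progenitors and their progeny, and other cells of the dissected tissue need not have lost Egfr. The tissue of each genotype was labelled rostral or caudal, giving knockout rostral and knockout caudal libraries with replicate numbers 2, 5 and 7 and control rostral and control caudal libraries with replicate numbers 1, 3 and 9. Before the replicate number each title holds another number, 4858 for knockout 5 and control 1. It is 4692 for knockout 2 and 7 and for control 3 and 9, and the labels do not say what it stands for.

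Hedgehog ligands bind Patched, which in their absence keeps the membrane protein Smoothened out of the primary cilium. Once Smoothened is released, the Gli2 and Gli3 proteins are no longer cut into repressors, and Gli1 and Ptch1 are transcribed, so that their transcripts are widely read as a measure of the signal. In the embryonic forebrain Shh is made mainly by ventral cells, Gli3 acts largely as a repressor in the dorsal cortex, and late in gestation the signal is known to bear on progenitors of interneurons of the olfactory bulb and of oligodendrocytes.

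Total counts per library ran from 25223733 to 30383672. Egfr, the targeted gene, separated the genotypes in all 12 libraries: it ran from 3.60 to 7.33 CPM (counts scaled to a library total of 1e+06) in the 6 knockout libraries, and the 6 control libraries lay between 19.2 and 41.6 CPM. By the titles, a rostral and a caudal library with the same genotype and replicate number come from 1 embryo, but transcripts did not follow the titles. Nr2f1, whose product forms a gradient along the cortex with its high end caudally, ran from 50.7 to 348 CPM in libraries labelled rostral and from 58.6 to 373 CPM in libraries labelled caudal. Xist, a transcript of female cells, and the summed Y-linked transcripts differed between the 2 libraries of 1 title in 5 of 6 embryos. Knockout rostral 2 and 5 were at 0.0699 and 0.146 CPM of Xist with 162 and 152 CPM of Y-linked transcripts, whereas all 3 knockout caudal libraries and knockout rostral 7 held 324 to 450 CPM of Xist and at most 0.0658 CPM of Y-linked transcripts. In control rostral 1 and 3 there were both (230 and 278 CPM of Xist, 94.6 and 92.0 CPM of Y-linked transcripts). Whether libraries were exchanged or mixed was not tested, so every statement on a region concerns libraries as labelled, and caudal against rostral in knockout libraries also compares libraries that differ in these transcripts. The n below counts libraries, not embryos. Where 2 libraries of 1 embryo stand on the same side of a comparison, its p-values can be too small. Where they stand on opposite sides, leaving out a positive tie can make its p-values too large. The titles do not settle which libraries share an embryo. The summed level of 20 ventral forebrain markers, which reports tissue from below the cortex, ran from 156 to 988 CPM and was highest in control caudal 3. Mitochondrial transcripts took 7.25% of counts in knockout rostral 7 and 4.77% in knockout caudal 5, and at most 3.53% elsewhere.

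Sequences before an annotated start were found for 7 of the 10 genes in a RefSeq promoter table of build GRCm38.p6. The 250 bases before the start annotated there are shown for Ptch1, the receptor gene that Gli proteins are known to activate. They are also shown for Gli3 and Cdon, whose levels ran alike over the libraries. These starts were not matched to the gene extents of build GRCm39 given below, and a window may precede an internal start of its gene. CpG dinucleotides are in capitals, and the sequences run 5′ to 3′ on the strand of the gene.
Ptch1: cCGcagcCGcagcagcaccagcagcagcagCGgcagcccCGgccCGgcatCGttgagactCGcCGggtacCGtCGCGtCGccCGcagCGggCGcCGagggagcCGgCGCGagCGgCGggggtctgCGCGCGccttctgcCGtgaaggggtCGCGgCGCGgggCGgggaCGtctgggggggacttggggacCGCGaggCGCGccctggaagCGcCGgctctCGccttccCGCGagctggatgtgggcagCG
Gli3: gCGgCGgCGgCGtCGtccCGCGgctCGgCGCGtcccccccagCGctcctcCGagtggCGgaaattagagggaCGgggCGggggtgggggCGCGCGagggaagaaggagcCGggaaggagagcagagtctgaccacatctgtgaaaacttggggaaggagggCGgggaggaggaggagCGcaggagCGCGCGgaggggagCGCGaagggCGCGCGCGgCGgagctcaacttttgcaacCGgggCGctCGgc
Cdon: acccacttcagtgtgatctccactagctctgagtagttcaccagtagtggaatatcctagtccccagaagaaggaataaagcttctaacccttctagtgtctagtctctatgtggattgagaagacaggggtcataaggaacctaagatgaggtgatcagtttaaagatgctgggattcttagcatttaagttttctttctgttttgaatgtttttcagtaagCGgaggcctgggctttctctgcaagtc
The Ptch1 window (chr13:63565736-63565985, minus strand) holds 41 CpG and the Gli3 window (chr13:15463473-15463722, plus strand) 34. The Cdon window (chr9:35451826-35452075, plus strand) holds 1, against a median of 6 over all 32851 windows of the table. Whether the Cdon and Ptch1 windows precede the first exon of their genes was not checked. These counts therefore describe the windows and not the main promoters of the genes. The Gli recognition sequence GACCACCCA or its complement TGGGTGGTC was found in 0 of the 7 windows, taken from 250 bases before to 50 bases after the start, and in 83 (0.253%) of all windows. That says only that these letters are not in these windows.

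Scaled for exon length, the co-receptors Cdon and Gas1 were the most abundant of the 10 transcripts and the ligand the least. In TPM (transcripts scaled per exon length to a total of 1e+06, mean ± SD, n = 12 libraries), Cdon was at 58.1 ± 17 and Gas1 at 50.7 ± 13.9, followed by Smo at 30.1 ± 2.64. Gli3 and Boc were both at 21.7 TPM, with SDs of 5.65 and 4.51. Gli2 followed at 12.6 ± 3.13 and Ptch1 at 9.26 ± 2.43 TPM. The lowest were Gli1 at 2.43 ± 0.561, Hhip at 0.771 ± 0.178 and Shh at 0.0786 ± 0.136 TPM. The ranges of neighbours overlapped from Cdon down to Ptch1, and Gli3 was above Boc in 6 of 12 libraries, so those 2 have no order. From Ptch1 downward the ranges did not overlap, which puts Ptch1, Gli1, Hhip and Shh in the same order in all 12 libraries.

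**Figure D1:**
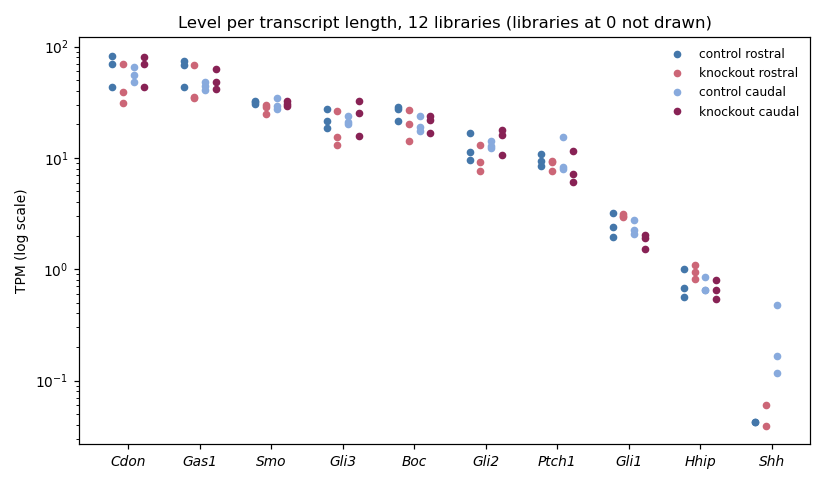
Level of each hedgehog transcript in TPM (y axis, log scale) in the 12 libraries, with genes on the x axis ordered by their mean and 1 point per library coloured by group. Libraries in which Shh had no count are not drawn. The ranges of Ptch1, Gli1, Hhip and Shh do not overlap, while those of the genes from Cdon to Ptch1 do.

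Shh (ENSMUSG00000002633.5, GRCm39 chromosome 5, 28661813 to 28672254) encodes the ligand and was barely detected. Only 24 counts fell on it in all 12 libraries, and it did not pass the filter on low counts. The knockout rostral libraries 2, 5 and 7 had 1, 0 and 2 counts, and the knockout caudal libraries had 0 each. Control rostral 1, 3 and 9 had 1, 1 and 0 counts. Control caudal 1, 3 and 9 had 4, 12 and 3 counts. In libraries labelled caudal every control library was thus above every knockout library, and in those labelled rostral the genotypes overlapped. Of the 17734 genes that passed the filter, which leaves out Shh, 10.2% did not overlap between the caudal genotypes.

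Pooled over the caudal libraries, the 19 control counts stood for a level 6.58 times the floor that 3 counts over the 82182668 knockout counts together allow. The exact 95% lower limit of the ratio, which also covers the counting error of the control libraries, was 4.85. Without control caudal 3, the remaining 7 control counts gave 3.69 times that floor and a lower limit of 2.28. Both limits cover counting error of pooled reads only and leave out the spread between libraries. The exact two-sided permutation p was 0.1, the smallest that 3 against 3 can give. Over all libraries the control level was 7.39 times the knockout level, from 21 against 3 counts, with a 95% exact interval from 2.21 to 38.7 that covers counting error only. The exact two-sided permutation p over 6 against 6 libraries was 0.0519, which treats libraries as separate although the titles tie them in pairs. With both libraries of a title summed, the exact two-sided permutation p was 0.1, the smallest that 3 against 3 can give. Without control caudal 3 the ratio was 3.83 and its interval, from 0.955 to 22.0, included 1. In the rostral libraries the counts were 3 in knockout and 2 in control.

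The excess of Shh counts in control caudal 3 came with the highest ventral marker sum of the 12 libraries, 988 CPM, and with the highest level of Nkx2-1, a transcription factor of the ventral forebrain, 5.79 CPM. The other 2 control caudal libraries had ventral sums of 320 and 289 CPM, inside the range of the knockout caudal libraries, 156 to 786 CPM. The next highest sums after control caudal 3 were 786 CPM in knockout caudal 2 and 737 CPM in control rostral 9, both with 0 Shh counts. Knockout rostral 7 followed, with 598 CPM and 2 Shh counts. The contribution of ventral tissue to the Shh counts was not tested. In bulk tissue, fewer cells of a type and less RNA per cell cannot be told apart, here and for every gene below.

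Hhip (ENSMUSG00000064325.5, chromosome 8, 80692480 to 80784635) encodes a membrane protein that binds and sequesters hedgehog ligands and is itself a target of the pathway. The knockout rostral libraries 2, 5 and 7 were at 3.11, 2.38 and 3.61 CPM, and the control rostral libraries 1, 3 and 9 at 1.64, 2.95 and 2.01 CPM. Knockout libraries lay toward the upper end, but control rostral 3 was above knockout rostral 5. The knockout caudal libraries were at 2.27, 1.84 and 1.91 CPM and the control caudal libraries at 2.55, 1.92 and 2.08 CPM, with overlapping ranges. Hhip rested on 43 to 101 counts per library.

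Ptch1 (ENSMUSG00000021466.13, chromosome 13, 63656142 to 63721412) encodes the hedgehog receptor and, as a target, restrains the signal. Knockout rostral 2, 5 and 7 were at 41.7, 42.1 and 45.3 CPM, and control rostral 1, 3 and 9 at 42.3, 39.1 and 50.2 CPM. The caudal libraries varied more: knockout caudal 2, 5 and 7 were at 50.4, 32.6 and 32.8 CPM and control caudal 1, 3 and 9 at 38.5, 70.7 and 39.6 CPM. In each caudal group 1 library stood above the others, control caudal 3 and knockout caudal 2. These were also the 2 libraries with the highest ventral marker sums, 988 and 786 CPM, and among the libraries labelled caudal they had the lowest Nr2f1 levels, 58.6 and 71.3 CPM. The contribution of either to the Ptch1 levels was not tested.

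The co-receptors Boc, Cdon and Gas1 help present the ligand to Patched. Boc (ENSMUSG00000022687.13, chromosome 16, 44305412 to 44379260) was at 28.1, 38.5 and 26.1 CPM in knockout rostral 2, 5 and 7 and at 40.4, 31.0 and 39.8 CPM in control rostral 1, 3 and 9. In caudal libraries, given in the same order, Boc was at 32.7, 28.4 and 31.6 CPM in knockout and at 34.4, 25.3 and 29.2 CPM in control. The genotypes overlapped under both labels.

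Cdon (ENSMUSG00000038119.16, chromosome 9, 35332424 to 35418948) varied widely within groups. It was at 94.5, 173 and 101 CPM in knockout rostral libraries and at 171, 108 and 208 CPM in control rostral libraries. It was at 192, 127 and 174 CPM in knockout caudal and at 139, 165 and 128 CPM in control caudal libraries. Each rostral group held libraries near the bottom and near the top of the whole range.

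Gas1 (ENSMUSG00000052957.9, chromosome 13, 60322219 to 60325179), whose protein is tethered to the membrane, was at 32.8, 65.1 and 42.2 CPM in knockout rostral and at 70.6, 41.7 and 65.2 CPM in control rostral libraries. In the caudal libraries it was at 57.9, 46.3 and 46.3 CPM in knockout and at 46.2, 42.7 and 42.0 CPM in control. Of the 9 tested hedgehog genes, Gas1 alone had caudal ranges that did not overlap between genotypes, and the gap lay between 46.3 and 46.2 CPM. Of all 17734 genes tested, 10.2% did not overlap in that comparison.

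Smo (ENSMUSG00000001761.8, chromosome 6, 29735502 to 29761364), which encodes the transducer Smoothened, was the steadiest of the 9. It was at 52.5, 51.6 and 57.7 CPM in knockout rostral, 58.4, 58.1 and 55.9 CPM in control rostral, 53.4, 61.8 and 58.7 CPM in knockout caudal and 64.0, 50.6 and 57.8 CPM in control caudal libraries. The highest of the 12 libraries was 1.26 times the lowest, against a median of 1.66 times over all tested genes. The same ratio was 1.60 for Boc, 1.91 for Gli2, 2.09 for Gli3, 2.15 for Gas1 and 2.17 for Ptch1. It was 2.20 for both Cdon and Hhip and 2.58 for Gli1.

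Gli1 (ENSMUSG00000025407.8, chromosome 10, 127165751 to 127177843), the activator that is itself a target, was at 4.91, 4.82 and 6.10 CPM in knockout rostral 2, 5 and 7 and at 3.78, 5.25 and 3.19 CPM in control rostral 1, 3 and 9. In caudal libraries it was at 2.37, 3.82 and 3.09 CPM in knockout and at 4.53, 3.37 and 3.88 CPM in control. The lowest and the highest of all 12 libraries were both knockout libraries, knockout caudal 2 and knockout rostral 7. All 3 knockout rostral libraries were above all 3 knockout caudal libraries, whereas the control ranges overlapped. Gli1 rested on 62 to 171 counts per library.

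Gli2 (ENSMUSG00000048402.15, chromosome 1, 118761862 to 118981349), the main activator at the start of a response, was at 19.7, 28.9 and 22.0 CPM in knockout rostral and at 24.6, 21.5 and 37.1 CPM in control rostral libraries. It was at 37.7, 27.6 and 35.9 CPM in knockout caudal and at 31.9, 28.4 and 29.1 CPM in control caudal libraries. Gli3 (ENSMUSG00000021318.16, chromosome 13, 15637820 to 15904611), the main repressor, was at 46.2, 81.3 and 51.7 CPM in knockout rostral and at 66.0, 58.4 and 86.5 CPM in control rostral libraries. It was at 96.4, 57.3 and 78.1 CPM in knockout caudal and at 75.1, 65.0 and 67.5 CPM in control caudal libraries. For both genes the genotypes overlapped under either label.

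**Figure D2:**
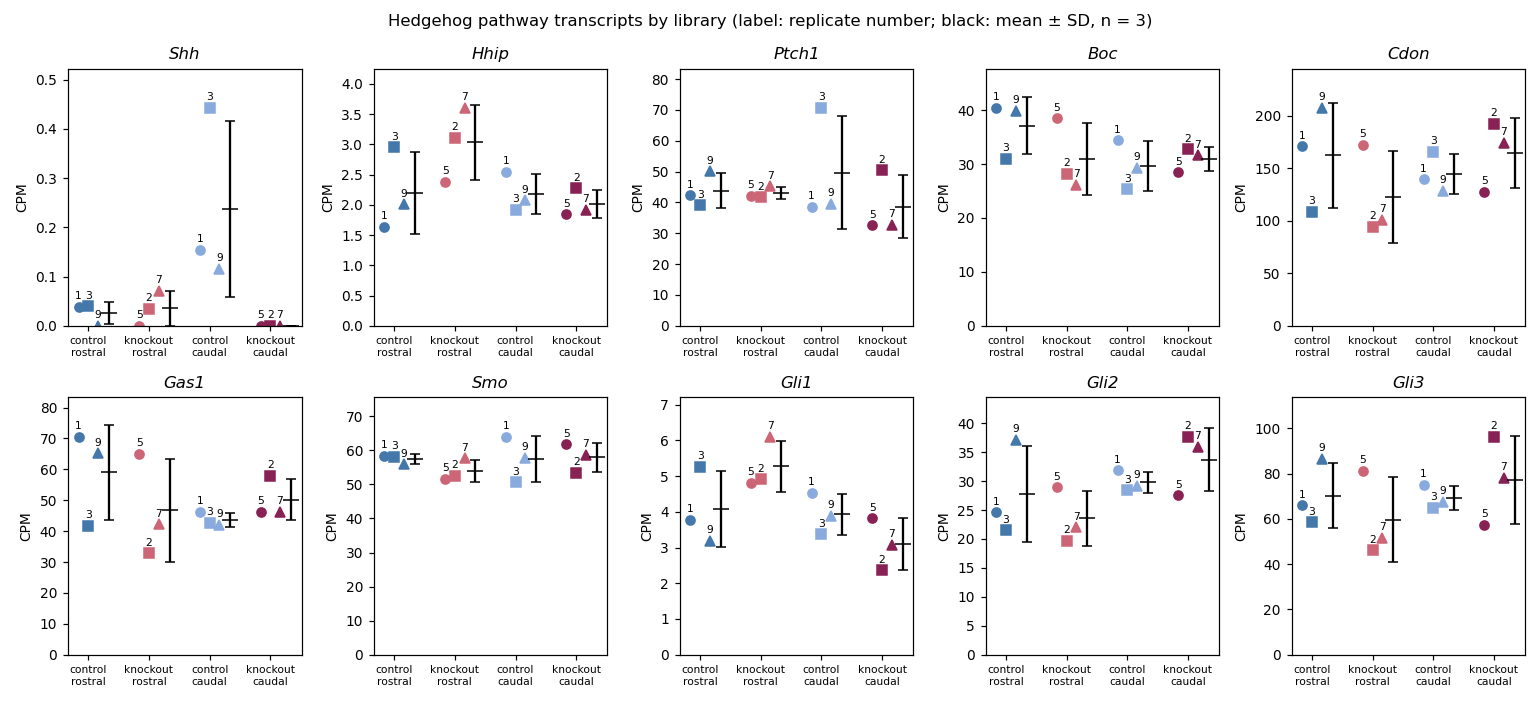
CPM (y axis, from 0, 1 scale per gene) of the 10 hedgehog genes in each library, by group on the x axis, with points labelled by replicate number and black bars for the group mean ± SD (n = 3). Shh stands above 0.1 CPM in the 3 control caudal libraries alone, Smo is nearly level, and knockout rostral libraries lie above knockout caudal ones for Gli1.

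No tested hedgehog gene was called between knockout and control. With edgeR's quasi-likelihood test, fitted to all 12 libraries and adjusted over 17734 genes, 0 of 9 passed an adjusted p of 0.05 in rostral libraries, where 0.0113% of all genes did, 0 of 9 in caudal libraries (0.0169% of all genes) and 0 of 9 over both (0.0226%). None of the 9 had an unadjusted p under 0.05 in any of the 3, where 1.48%, 3.67% and 2.24% of all genes did, and DESeq2 called 0 as well. CPM ranges did not overlap between all knockout and all control libraries in 0 of 9 genes, against 0.124% of all genes, and in rostral libraries alone in 0 of 9, against 6.21%. In the same fit Egfr had a log2 fold change of -2.37 (SE 0.18, adjusted p = 0.000362) and Olig1, a transcription factor of oligodendrocyte precursors that responds to hedgehog signals in other settings, of -1.27 (SE 0.16, adjusted p = 0.0235).

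The intervals show what size of change these libraries leave room for. Over both labels, the log2 fold change of knockout over control was -0.01 for Smo, with a 95% interval from -0.15 to 0.13, that is a fold between 0.900 and 1.10. Boc was at -0.07 (-0.32 to 0.18) and Gli1 at 0.04 (-0.31 to 0.40). For Gli2 the value was -0.00 (-0.34 to 0.33) and for Gli3 it was -0.01 (-0.38 to 0.36). Ptch1 was at -0.17 (-0.55 to 0.21) and Hhip at 0.21 (-0.18 to 0.59). Gas1 was at -0.04 (-0.42 to 0.33) and Cdon at -0.08 (-0.52 to 0.35). The widest of these, for Cdon, runs from a fold of 0.698 to one of 1.28, and changes inside such limits are not excluded. The limits hold for 1 gene at a time, and the test adjusted over all genes can also miss larger changes. In the same contrast Hes5, with a log2 fold change of -1.22, had an adjusted p of 0.374 by edgeR and was not called. The adjusted p of all 9 hedgehog genes was 0.999934. The median of the 9 was -0.01, against 0.00 over all genes tested.

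Within each label the estimates were larger and less certain. In rostral libraries Hhip had a log2 fold change of 0.51 (SE 0.25, unadjusted p = 0.0633) and Gli1 of 0.42 (SE 0.23, unadjusted p = 0.0897), both with an adjusted p of 0.999955 by edgeR. Cdon was at -0.38 (SE 0.28), Gas1 at -0.31 (SE 0.24), Boc at -0.23 (SE 0.16), Gli2 at -0.21 (SE 0.21) and Gli3 at -0.20 (SE 0.24). Smo and Ptch1 were at -0.05 and 0.01. So Hhip and Gli1 had positive estimates while the co-receptors and Gli2 and Gli3 had negative ones, with none past the test. Ptch1, a target of the pathway as Hhip and Gli1 are, lay near 0. In caudal libraries every one of the 9 had the opposite sign, counting Ptch1 and Smo, which lay near 0 in rostral libraries: Gli1 was at -0.33 (SE 0.23) and Hhip at -0.09 (SE 0.25), and Cdon, Gas1, Gli2, Gli3, Boc and Smo lay between 0.03 and 0.22. Ptch1 was at -0.35 (SE 0.24, unadjusted p = 0.182, adjusted p = 0.999729), and at 0.01 without control caudal 3, so that its sign rests on that library. Without it the value over both labels was 0.01 and the difference between labels 0.01.

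**Figure D3:**
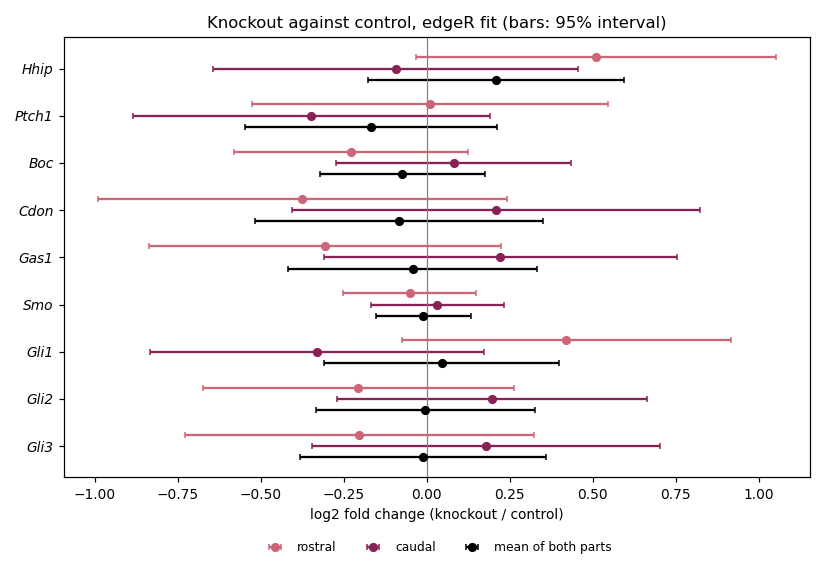
Log2 fold change of knockout over control (x axis) for the 9 tested hedgehog genes (y axis), in rostral libraries, caudal libraries and the mean of both, with 95% intervals from the edgeR fit. All intervals include 0, and the narrowest are those of Smo.

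The rostral estimates moved both ways with the libraries included. Without control rostral 1 and 3, which held both Xist and Y-linked transcripts, the rostral log2 fold change was -0.66 for Gli2 (unadjusted p = 0.0137), -0.76 for Cdon (0.0412) and 0.72 for Gli1 (0.0495). Each then had an adjusted p of 0.777 by edgeR, with 1 control rostral library left and its spread taken from the other groups. With the main fit these were -0.21, -0.38 and 0.42, so the sizes moved by over 1.5 times while no gene was called. Leaving out control rostral 9 instead brought them toward 0, to 0.08 for Gli2, -0.14 for Cdon and 0.29 for Gli1, with Gli3 at -0.00. Without knockout rostral 2, Gas1 was at -0.10.

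The difference between the caudal and the rostral genotype effect was not called for any of the 9 (0% of all genes were called, and 2.74% had an unadjusted p under 0.05). Gli1 had the largest value, -0.75 on the log2 scale (SE 0.32, 95% interval -1.46 to -0.04, unadjusted p = 0.0393, adjusted p = 0.998 by edgeR). The other differences were -0.60 for Hhip, 0.58 for Cdon, 0.53 for Gas1, 0.40 for Gli2, 0.38 for Gli3, -0.36 for Ptch1, 0.31 for Boc and 0.08 for Smo. The intervals of these 8 included 0, and with the adjusted p of Gli1 the opposite signs under the 2 labels are not shown to differ.

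To ask how the genes vary along the cortex, libraries labelled caudal were compared with those labelled rostral. Over both genotypes Gli1 was lower in caudal libraries, with a log2 fold change of -0.38 (SE 0.16, unadjusted p = 0.0376, adjusted p = 0.477 by edgeR), and Gli2 was higher, at 0.34 (SE 0.15, unadjusted p = 0.0460, adjusted p = 0.495). Neither was called, nor was any of the other 7, and 0% of all genes were called. An unadjusted p under 0.05 was reached by 2 of the 9 hedgehog genes and by 9.95% of all genes. Hhip was at -0.27, Gli3 at 0.20, Cdon at 0.16, Gas1 at -0.14, Boc at -0.13, Smo at 0.08 and Ptch1 at 0.04.

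The split by genotype was looked at after the values had been seen. For Gli1, Gli2, Gli3, Hhip, Cdon and Smo the estimates were larger in size in knockout than in control libraries. For Gas1, Boc and Ptch1 they were smaller in size. In knockout libraries Gli1 averaged 3.09 ± 0.725 CPM in caudal and 5.28 ± 0.718 CPM in rostral libraries (SD, n = 3 each), a log2 fold change of -0.75 (SE 0.23, 95% interval -1.25 to -0.25, unadjusted p = 0.00677, adjusted p = 0.420 by edgeR). Gli2 averaged 33.7 ± 5.40 against 23.5 ± 4.80 CPM (0.54, SE 0.21, unadjusted p = 0.0277, adjusted p = 0.473). Hhip averaged 2.01 ± 0.230 against 3.03 ± 0.617 CPM (-0.57, SE 0.25, unadjusted p = 0.0406, adjusted p = 0.492). Thus 3 of 9 had an unadjusted p under 0.05, against 9.90% of all genes, and 0% of all genes were called. The knockout ranges did not overlap in 2 of the 9, Gli1 and Hhip, against 13% of all genes.

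In control libraries 0 of 9 had an unadjusted p under 0.05, against 2.99% of all genes, and 0% of all genes were called. Gli1 was at -0.00 (SE 0.23), from 3.93 ± 0.580 CPM in caudal and 4.07 ± 1.06 CPM in rostral libraries, and Gli2 at 0.14 (SE 0.21). The largest values were -0.40 (SE 0.24) for Gas1 and -0.29 (SE 0.16) for Boc. Ranges did not overlap in 0 of 9 genes, against 8.64% of all genes. The difference between the 2 genotypes in this contrast is the same quantity as the difference of genotype effects given above.

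**Figure D4:**
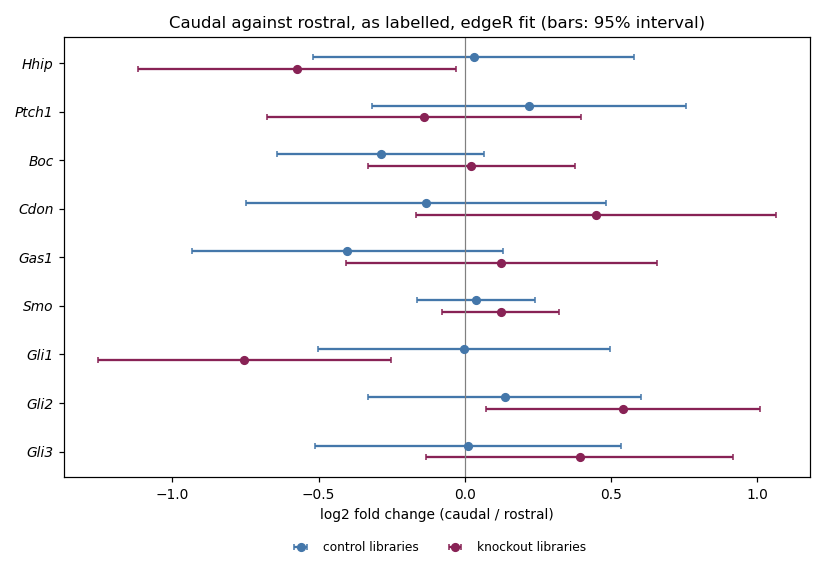
Log2 fold change of caudal over rostral libraries (x axis) for the 9 tested hedgehog genes (y axis) in knockout libraries and in control libraries, with 95% intervals from the edgeR fit. In knockout libraries the intervals of Gli1, Gli2 and Hhip lie on 1 side of 0, and in control libraries all intervals include 0.

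Seen library by library, several of the genes moved together among those labelled rostral. Gli2 was lowest in knockout rostral 2, control rostral 3 and knockout rostral 7, at 19.7, 21.5 and 22.0 CPM. Cdon was lowest in the same 3 libraries, at 94.5, 108 and 101 CPM. Gli3 was lowest in knockout rostral 2 and 7, at 46.2 and 51.7 CPM, with knockout caudal 5 and control rostral 3 next at 57.3 and 58.4 CPM. Gli1 and Hhip were at the opposite end there: these 3 libraries held the 3 highest levels of Hhip (3.11, 2.95 and 3.61 CPM in knockout rostral 2, control rostral 3 and knockout rostral 7) and also the 3 highest of Gli1 (4.91, 5.25 and 6.10 CPM).

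The 3 libraries were the ones with the highest Nr2f1 among those labelled rostral, at 340, 348 and 205 CPM against 97.1, 78.9 and 50.7 CPM in the others. Their ventral marker sums were 168, 218 and 598 CPM, and mitochondrial transcripts took 2.10%, 1.97% and 7.25% of counts. All 3 have 4692 in their titles, as has control rostral 9, while knockout rostral 5 and control rostral 1 have 4858. The contribution of position along the cortex, ventral tissue, RNA quality or what that number stands for to this pattern was not tested. Among caudal libraries (knockout 2, 5, 7, then control 1, 3, 9) Nr2f1 was at 71.3, 248, 348, 343, 58.6 and 373 CPM. In that order Cdon was at 192, 127, 174, 139, 165 and 128 CPM, and Gli1 at 2.37, 3.82, 3.09, 4.53, 3.37 and 3.88 CPM. The pattern there was mixed: knockout caudal 7 paired high Nr2f1 with high Cdon and low Gli1, control caudal 9 with low Cdon. With Nr2f1 as a covariate in place of the label, the genotype effect over all libraries was 0.05 for Gli2, 0.03 for Gli3, 0.02 for Cdon, 0.05 for Gli1 and -0.09 for Ptch1 on the log2 scale. All 9 then lay between -0.09 and 0.21, each with an adjusted p of 0.999784 by edgeR.

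**Figure D5:**
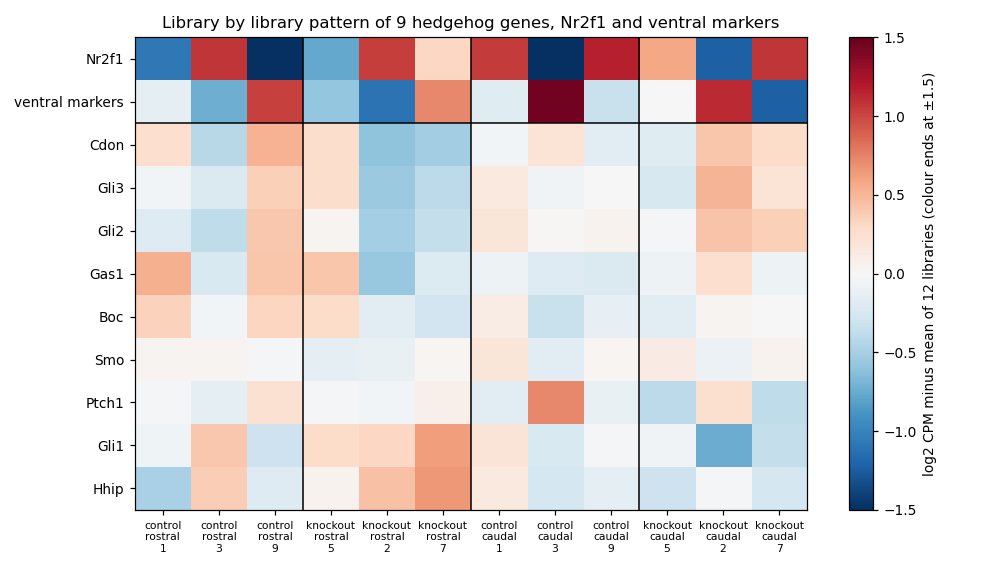
Heat map of log2 CPM minus the mean of the 12 libraries (colour, ends at ±1.5) for Nr2f1, the summed ventral markers and the 9 tested hedgehog genes (rows) in each library (columns, grouped by label). Knockout rostral 2 and 7 and control rostral 3 are low for Cdon, Gli3 and Gli2 and high for Gli1 and Hhip.

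Genes outside the 10 with the most similar course over the 12 libraries were listed as a description. Pearson's r was taken on log2(CPM + 1), with CPM here scaled by the normalization factors of edgeR (TMM). It covered 10720 genes with a mean of at least 5 such CPM, leaving out predicted genes and pseudogenes. Points share libraries, depth and tissue makeup, and the highest of so many correlations are high by selection. For Gli1 these were Nt5c3b (0.924), Hras (0.922), Ap2m1 (0.901), Selenow (0.893) and Pafah1b3 (0.891). For Ptch1 they were Dnmt3a (0.945), Nrxn3 (0.945), Dclk2 (0.930), Tpgs2 (0.927) and Ncoa3 (0.923). None of these 10 is a hedgehog gene of the lists used here. For Shh the highest value was 0.867, for Sorcs3, but with 24 counts in all a correlation is no finding.

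Beyond the 10, 67 further genes of the pathway were listed by role, and 58 of them passed the filter on low counts. None was called in any of the 7 comparisons by edgeR or by DESeq2. Between knockout and control, 0 of the 58 had an unadjusted p under 0.05 in rostral libraries, in caudal libraries and over both.

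Of the genes for release of the ligand, which covers lipid attachment (Hhat), export (Disp1 to Disp3) and carriage (Scube1 to Scube3), 7 of 10 were tested. Their median log2 fold change of knockout over control was -0.06 over both labels, with 1 value positive and 6 negative. The other ligands, Dhh and Ihh, averaged 0.123 and 0.226 CPM and were not tested. Of the further receptors and ligand-binding proteins, all 6 were tested, with a median of -0.04. Lrp2, the endocytic receptor megalin, had the smallest p of the list, with a log2 fold change of -0.50 (SE 0.31, unadjusted p = 0.138, adjusted p = 0.999934) at a mean of 2.78 CPM. Its value was -0.86 without knockout rostral 2 and -0.30 without knockout rostral 5.

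The 32 genes of the cilium and of transduction to the Gli proteins were all tested and had a median of -0.01. Ift88, a subunit of the transport complex of the cilium, was at -0.21 in rostral libraries (SE 0.11, unadjusted p = 0.0838). Of the 20 genes known as targets in one tissue or another, 14 were tested, with a median of 0.06. Mycn, a proliferation factor, was at 0.33 in caudal libraries (SE 0.16, unadjusted p = 0.0605) and Nkx2-1 at -1.42 (SE 0.75, unadjusted p = 0.0872). Without control caudal 3 Nkx2-1 was at -0.10. Foxf2 was at 0.61 in rostral libraries (SE 0.35, unadjusted p = 0.106), and at 0.32 without knockout rostral 7. The adjusted p was at least 0.999 for each of these 4 in the fit of all libraries. The ventral patterning genes Foxa2 and Nkx6-1 averaged 0 and 0.0360 CPM, and Nkx2-2 averaged 0.554 CPM.

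Between libraries labelled caudal and rostral, 5 of the 58 had an unadjusted p under 0.05, a share of 8.62% against 9.95% of all genes. The smallest p belonged to Rab34, needed to form cilia, which was lower in caudal libraries at -0.44 (SE 0.14, unadjusted p = 0.00790, adjusted p = 0.430 by edgeR). Cul3, a ubiquitin ligase scaffold that with Spop acts on Gli proteins, was at 0.22 (SE 0.08, unadjusted p = 0.0199, adjusted p = 0.449), and Sufu, which holds Gli proteins in the cytoplasm, at 0.18 (SE 0.08, unadjusted p = 0.0434, adjusted p = 0.491). For the difference of genotype effects the smallest p was that of Foxf2, at -0.98 (SE 0.49, unadjusted p = 0.0702, adjusted p = 0.998), and 0 of the 58 had an unadjusted p under 0.05.

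Markers of other cell types stood beside these comparisons as follows. The summed oligodendrocyte precursor list, which includes Olig1 and Olig2, ran from 264 to 304 CPM in knockout caudal and from 356 to 435 CPM in control caudal libraries, without overlap, and from 340 to 406 and from 336 to 413 CPM in the rostral groups. Markers of radial glia, the progenitors of the cortex, lay between 2438 and 3177 CPM in knockout libraries and between 2584 and 3041 CPM in control libraries. Interneuron markers lay between 437 and 734 CPM in knockout caudal libraries and between 657 and 919 CPM in control caudal libraries. The contribution of cell composition to the values of the 10 hedgehog genes was not tested.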

How the data were processed

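Messenger RNA of 12 libraries was counted per gene. Per the submitters' processing notes, the authors used STAR 2.7.8a for alignment (GRCm39) and featureCounts 2.0.3 for counting. Per the file headers, GENCODE vM28 was the annotation, read pairs were counted in reverse-stranded mode, and reads of several places or genes in fractions, so the deposited values are expected counts without normalization (between 21.6% and 23.9% of detected genes not whole). Rounded counts were tested with edgeR 4.0.16 under R 4.3.3 (TMM, filterByExpr, robust quasi-likelihood, Benjamini-Hochberg adjustment, threshold 0.05) in 1 fit of 4 groups (8 residual degrees of freedom). The SE is the size of the log2 fold change over the square root of F. CPM are counts over the library total times 1e+06, and TPM use the exon length of the files. DESeq2 was 1.42.0.

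The genes and lists, and the tests, were chosen with earlier results of these data known. Named are the 10 genes, called genes of the other lists or those with the smallest p, and the 5 genes most like Shh, Gli1 and Ptch1; Dhh, Ihh, Foxa2, Nkx6-1, Nkx2-2 and Sufu were named after their values were seen. Deviations from group means over 1000 genes correlated at -0.64 to -0.16 between libraries of 1 titled embryo, so the titles were not used as pairs. The edgeR fit was also run on simulated counts of independent libraries. That simulation held no shared embryos or mixed libraries and set no changes in genes of low count, so it does not cover those features of these data. Alternatives were other size factors and tools, no filter, each library left out, the titled numbers as terms, sums per titled embryo, 6 libraries alone and Nr2f1 as a covariate; the split of caudal against rostral by genotype was added after values were seen.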

Additional observations from a re-analysis of the deposited data

How the results depend on the processing

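No alternative called any of the 9 tested hedgehog genes. Over 21 alternative settings, 1143 values of 63 gene and comparison pairs were recomputed: 1073 kept their sign, 70 changed it and 0 had an adjusted p under 0.05. The lowest adjusted p was 0.124, for Gli2 between caudal and rostral libraries without control rostral 9. The log2 fold change of Gli1 between caudal and rostral knockout libraries ran from -0.92 to -0.60, with adjusted p from 0.150 to 0.877, and kept an unadjusted p under 0.05 in all 18 alternatives. These alternatives reuse the same libraries, in a comparison added after values were seen, and are no independent support. The 2 sides also differ in sex-linked transcripts. With the titled embryo as a replicate block this Gli1 value was -0.77 (unadjusted p = 0.0204, adjusted p = 0.875 by edgeR), and the block called 0 hedgehog genes and 0 genes in all. The titles give both libraries to 1 embryo, which the pairing check and the sex-linked transcripts do not bear out. Without a filter Shh had a caudal log2 fold change of -5.72 with an adjusted p of 0.978, a fitted value against a group at 0 that is no bound. The count of all genes called moved over the alternatives from 0 to 8 in rostral, 1 to 26 in caudal and 3 to 15 in both sets of libraries for genotype (2, 3 and 4 in the main fit). For caudal against rostral it moved from 0 to 74, in knockout libraries from 0 to 80, in control libraries from 0 to 12, and for the difference of genotype effects from 0 to 6 (0 each in the main fit), with the 74 and the 80 from DESeq2. Depth limits Shh, with at most 12 counts in a library, while Hhip and Gli1 had at least 43 and 62.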
